A study of Mus musculus with 15 samples.

Results

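Class F is the latest of the 7 groups (A1, A2, B, C, D, E and F) into which the authors sorted 560 genes that lipid A raised in mouse macrophages. It holds 119 genes. The 94 genes described here are those left after 25 symbols of other families (chemokines, interleukins, solute carriers and several prominent interferon-induced families among them) were set aside. The cells were macrophages grown with M-CSF from the bone marrow of C57BL/6 mice of both sexes (the labels give no genotype beyond the strain), either unstimulated (0 min) or given 100 ng/ml lipid A for 15, 30, 60 or 120 min. Each time gave chromatin RNA (the RNA left in the chromatin pellet, rich in transcripts still being made), nucleoplasmic RNA (soluble nuclear RNA) and cytoplasmic RNA, with 1 library for each of the 3 fractions at each of the 5 times, 15 libraries in all. None of the libraries was replicated, so differences between times could not be tested against replicate spread.

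The authors built the classes from chromatin RNA over time, as far as their tables show, so the chromatin values below describe how the members were chosen and support nothing. Nucleoplasmic and cytoplasmic RNA were not used for the choice as far as is known. A gene is called higher or lower here at 4-fold or more on the ratio of RPKM + 0.5 to its 0 min value in the same fraction, provided that 1 or more of the libraries of that fraction reached 1 RPKM. RPKM is the number of reads relative to transcript length and library size. Folds given with an interval are ratios of RPKM without the addition. Intervals are exact 95% intervals that cover counting error only.

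Lipid A is the part of bacterial lipopolysaccharide that engages Toll-like receptor 4. That receptor first sets off factors present in resting cells, which switch on early genes, and through a second adaptor it leads to type I interferon, which the macrophages release and sense themselves. Interferon then activates STAT and IRF factors, and IRF-containing complexes bind a DNA element called the interferon-stimulated response element. Genes that answer interferon therefore tend to come after the first wave in these cells, and many of them restrict viruses and intracellular pathogens.

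Names in the class table are of an older generation. By RefSeq, Gm14446 is Ifit1bl1, Pydc3 is Ifi208, Pydc4 is Ifi213, Pyhin1 is Ifi209, BC013712 is Themis2, BC016423 is Tasor2, A430084P05Rik is Scimp, Ccdc101 is Sgf29, and Phf11, Gm4902, Gm6907 and D14Ertd668e are Phf11a, Phf11b, Phf11c and Phf11d. The libraries held 15.6 to 52.3 M reads. The median change of all genes tested was -0.34 in chromatin, -0.47 in nucleoplasmic and -0.49 in cytoplasmic RNA at 120 min on the log2 scale, so part of every ratio below is relative to a downward shift of the bulk of genes. Summed levels of 12 macrophage markers were between 1569 and 2380 RPKM in chromatin. They were between 10582 and 14312 RPKM in nucleoplasmic and between 1512 and 3117 RPKM in cytoplasmic RNA. Lyz2 made up the largest part of each sum (1162 RPKM in chromatin at 0 min). Lyz1 stayed at or below 2.19 RPKM in every library, and Aif1 was between 1.00 and 4.83 RPKM in chromatin. Of the markers of other cells, 2 of 12 for T and NK cells were listed (0.203 to 3.53 RPKM summed), 2 of 10 for B cells (7.57 to 37.2 RPKM), 9 of 13 for neutrophils (13.5 to 85.4 RPKM), 1 of 10 for erythroid cells (Tfrc, 1.86 to 39.96 RPKM) and 1 of 12 for stromal cells (at most 1.80 RPKM). Of 10 dendritic cell markers 3 were listed, and 1 of these, Bst2, is itself a member, so it makes up most of their sum. Lck of the T and NK cell list went from 0.0910 to 3.24 RPKM in cytoplasmic RNA and Pdgfrb of the stromal list from 0.0435 to 1.80 RPKM in nucleoplasmic RNA between 0 and 120 min, and their part in the results was not tested. In these bulk fractions, fewer cells of a type and less RNA per cell cannot be told apart.

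Short stretches of the members' promoters carry the letters of the interferon element, and the choice of members did not read these letters. It did set aside several interferon-induced families by name, which may have changed the share with the element. Of the 94 members, 90 were matched to RefSeq genes by accession and 3 by symbol, and 65 had promoter windows in the table used, running from 250 bases before to 50 bases after an annotated start. The letters GAAA, any 2 bases and GAAA, searched on both strands (on the other strand TTTC, any 2 bases and TTTC), were present in windows of 19 of these 65 genes (29.2%). They were present for 3.93% of the 26960 other genes with windows, for 16.3% of class E genes, for 17.6% of class D genes and for 9.97% of all genes of classes A1 to E. No symbols were set aside in classes A1 to E. Related members can carry the same stretch, as Pydc3 and Pydc4 do and Trim30a and Trim30d, so the 19 genes are not independent. A match is a description of letters and does not show that a factor binds there. The following 30-base stretches are RefSeq sequence of build GRCm38.p6, written 5′ to 3′ on the strand of the gene, with the matching letters in capitals.

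Gm14446 (chr19:34599431-34599460, - strand): actctgtaggTTTCATTTTCtgtaagttgg
Ddx60 (chr8:61928058-61928087, + strand): gagcagaagaGAAACCGAAActatccttca
Pydc3 (chr1:173673597-173673626, + strand): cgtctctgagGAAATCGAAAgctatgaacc
Pydc4 (chr1:173599326-173599355, - strand): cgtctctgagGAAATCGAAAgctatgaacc
Mndal (chr1:173880204-173880233, - strand): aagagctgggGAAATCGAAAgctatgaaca
Gm4902 (chr14:59341361-59341390, - strand): cacatttagaGAAAAAGAAActagaaacta
Phf11 (chr14:59297532-59297561, - strand): cacatttagaGAAAAAGAAActagaaccta
Trim30a (chr7:104465210-104465239, - strand): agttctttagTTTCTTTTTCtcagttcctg
Trim30d (chr7:104507871-104507900, - strand): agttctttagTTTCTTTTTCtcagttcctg
Trim21 (chr7:102565450-102565479, - strand): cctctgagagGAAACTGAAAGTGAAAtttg
Slfn5 (chr11:82951937-82951966, + strand): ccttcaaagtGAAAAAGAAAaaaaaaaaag
Slfn9 (chr11:82991856-82991885, - strand): atccgagcagTTTCGTTTTCccaaaaacaa
Parp11 (chr6:127446786-127446815, + strand): ttccttttagTTTCGATTTCttggaacccg
Bst2 (chr8:71537583-71537612, - strand): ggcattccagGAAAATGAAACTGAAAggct
Fcgr4 (chr1:171018843-171018872, + strand): ggtgtttctgGAAAAGGAAActggtgagat
BC016423 (chr13:3611086-3611115, - strand): gcgctttagtTTTCACTTTCtgtcttcgga

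The other genes with a match were Gm12216, H2-T22 and Pilrb1. Counted from the start site as base 1, the match began at base -19 in Ddx60, -23 in Gm14446, -58 in Pydc3, -73 in Pydc4, -41 in Trim30d, -45 in Slfn9 and -44 in Parp11, and farther up at base -130 in Bst2 and -155 in Slfn5. In Trim21 and BC016423 it lay after the start, at bases 14 and 4. Ddx60, a helicase linked to antiviral RNA sensing, had a second match at base -53, and its whole window is shown because it holds both.

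Ddx60 promoter (chr8:61927837-61928136, + strand): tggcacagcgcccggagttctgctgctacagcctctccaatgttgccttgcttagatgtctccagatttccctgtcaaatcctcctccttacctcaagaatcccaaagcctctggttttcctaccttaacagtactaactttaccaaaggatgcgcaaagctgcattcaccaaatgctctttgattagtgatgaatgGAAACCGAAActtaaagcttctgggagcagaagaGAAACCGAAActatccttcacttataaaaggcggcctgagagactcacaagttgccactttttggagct

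TTCNNNGAA, the letters of the STAT element, which reads the same on both strands, was in windows of 12.3% of the members and 9.55% of other genes. TATAAA on either strand was in 15.4% against 15.7%, TGACTCA on either strand in 9.23% against 5.94%, and the kappaB motif in 21.5% against 12.6%. In classes A1 to E the shares were 9.97% for the STAT letters, 15.4% for TATAAA, 9.40% for TGACTCA and 24.2% for kappaB, so the members were not above those classes for TGACTCA or kappaB. The 19 members with the GAAA repeat had median log2 ratios at 120 min of 2.59 in chromatin, 2.14 in nucleoplasmic and 2.47 in cytoplasmic RNA. The 45 with an exon value and a window without it had medians of 2.55, 1.79 and 1.71 in the same order. The 28 without a window had 2.50, 1.70 and 1.46. Of the 19 genes, 16 had a low CpG promoter in the authors' annotation, against 22 of the 46 others with a window.

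Promoter type, which the authors deposited as CpG-rich or low CpG, is another feature apart from the RNA. CpG-rich promoters are typical of genes with broad activity, and low CpG promoters of genes with restricted activity. Of the 94 members 54 (57.4%) had a low CpG promoter, with an exact 95% interval of 46.8% to 67.6%. The share was 12.5% in class A1, 15.5% in A2, 28.6% in B, 41.8% in C, 51.5% in D and 48.3% in E. The interval of the members thus takes in the shares of D and E, and lies above those of the other 4 classes. That interval covers neither the error of those shares nor relatedness among the members. Before symbols were set aside, the share of all 119 class F genes was 63.9%. No symbols were set aside in the other classes. The windows of the members had a median of 24 CpG pairs in 300 bases for CpG-rich members and 4 for low CpG members. In exon RPKM, low CpG members began lower in chromatin (median 0.916 RPKM at 0 min, against 1.82 RPKM) and ended alike at 120 min (13.1 RPKM against 12.8 RPKM). Their median log2 ratios at 120 min were 2.63 against 2.50 in chromatin, 1.99 against 1.68 in nucleoplasmic and 1.85 against 1.57 in cytoplasmic RNA, for 53 low CpG and 39 CpG-rich members, with quartiles that overlapped in every fraction.

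**Figure D1:**
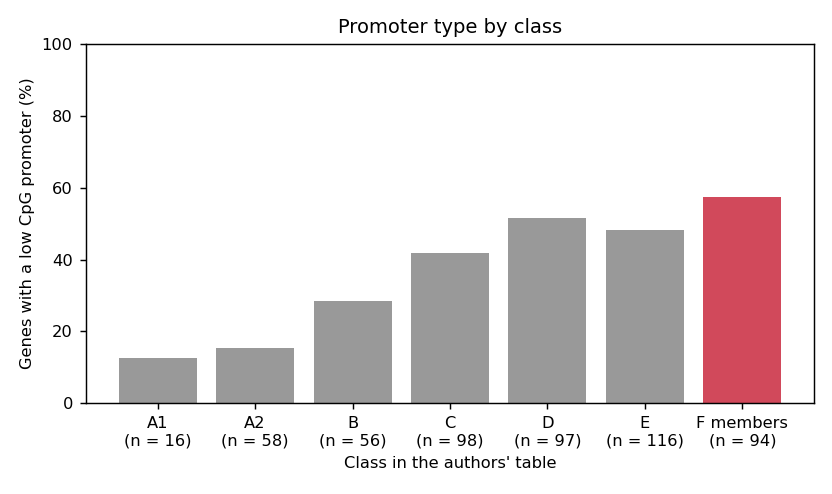
Share of genes with a low CpG promoter (y axis, %) in each class of the authors' table (x axis); bars start at 0 and n is the number of genes. The bar of the members stands at 57.4%, above 51.5% in class D and 48.3% in class E, and the earliest class A1 is at 12.5%.

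All 94 members had their highest whole-gene chromatin value at 120 min. The lowest ratio of that maximum to 0 min was 5.01, which belonged to Tap2 and is also the lowest in the whole class table, and the next were Itpr1 (5.02), Cdyl2 (5.05), 3110001I22Rik (5.07) and Mndal (5.07). Genes below that limit have no whole-gene values here. The largest ratios were 500-fold for Serpina3g, 239-fold for Iigp1, 128-fold for Gm13315, 121-fold for Angpt1 and 110.2-fold for Cp. The value at 60 min was at the median 14% of that at 120 min. Rnf31 at 35.6%, Usp12 at 37.2% and Mapkbp1 at 47.9% had the highest shares, above the median of the earlier class E, 31.7%. Class E in turn reached low shares, since Cxcl9 of class E had reached 1.92% at 60 min, so the 2 classes overlap on this measure. All these values were part of the choice.

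Exon values were found for 92 of the members, 78 under the same accession and 14 under another transcript of the same symbol. Angpt1, a ligand of the Tie2 receptor, and 4933412E12Rik had whole-gene values only. Angpt1 stood at 0.00846, 0.00591, 0.00329 and 0.0114 RPKM in chromatin from 0 to 60 min and at 1.02 RPKM at 120 min. 4933412E12Rik stood at 0.605, 0.416, 0.157 and 0.546 RPKM and then at 4.02 RPKM. Both were low before 120 min and highest there.

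In chromatin RNA the median of the 92 members was 1.27 RPKM at 0 min and 12.9 RPKM at 120 min. Over the same times the median of all 10020 listed genes went from 2.78 to 1.997 RPKM, so the members began below the typical gene and ended above it. Of the 92, 77 were called higher in chromatin RNA, beside 6.51% of 8881 genes tested, a count that the choice fixed and from which nothing is read. The 15 others had ratios of 1.403 to 1.98 on the log2 scale. In nucleoplasmic RNA 39 of the 92 (42.4%) were called higher, beside 4.84% of 9317 genes tested. In cytoplasmic RNA 38 of the 92 (41.3%) were called higher, beside 4.48% of 9239 genes tested. No member was called lower in any fraction, where 3.91%, 2.81% and 1.88% of the genes tested were. With 0.5 RPKM added, a gene below 1 RPKM at 0 min cannot be called lower. This was so for 45, 35 and 41 of the 92 members in the 3 fractions, so nothing is read from the absence of such calls. The members passing the filter on low values were 92, 83 and 75 in the 3 fractions. The remaining 9 and 17 stayed under 1 RPKM at every time in nucleoplasmic and cytoplasmic RNA.

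The median log2 ratio of the 92 members at 15, 30, 60 and 120 min was 0.01, -0.16, 0.15 and 2.56 in chromatin RNA. The nucleoplasmic medians were 0.05, 0.03, 0.03 and 1.89, and the cytoplasmic ones 0.12, 0.23, 0.34 and 1.71. At 60 min the median of all genes tested was -0.47 in chromatin, -0.18 in nucleoplasmic and 0.39 in cytoplasmic RNA. At 60 min 0 members were called in chromatin, nucleoplasmic or cytoplasmic RNA, where 2.53%, 2.1% and 2.63% of all genes tested were called higher. On whole-gene chromatin values 2 members had reached 5-fold at 60 min and 0 before. On whole-gene values, class E had median log2 ratios at 60 min of 1.28, 0.43 and 0.30 in chromatin, nucleoplasmic and cytoplasmic RNA, and the members 0.22, 0.05 and 0.11. At 120 min class E had 2.54, 1.999 and 1.22 and the members 2.29, 1.43 and 0.94.

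**Figure D2:**
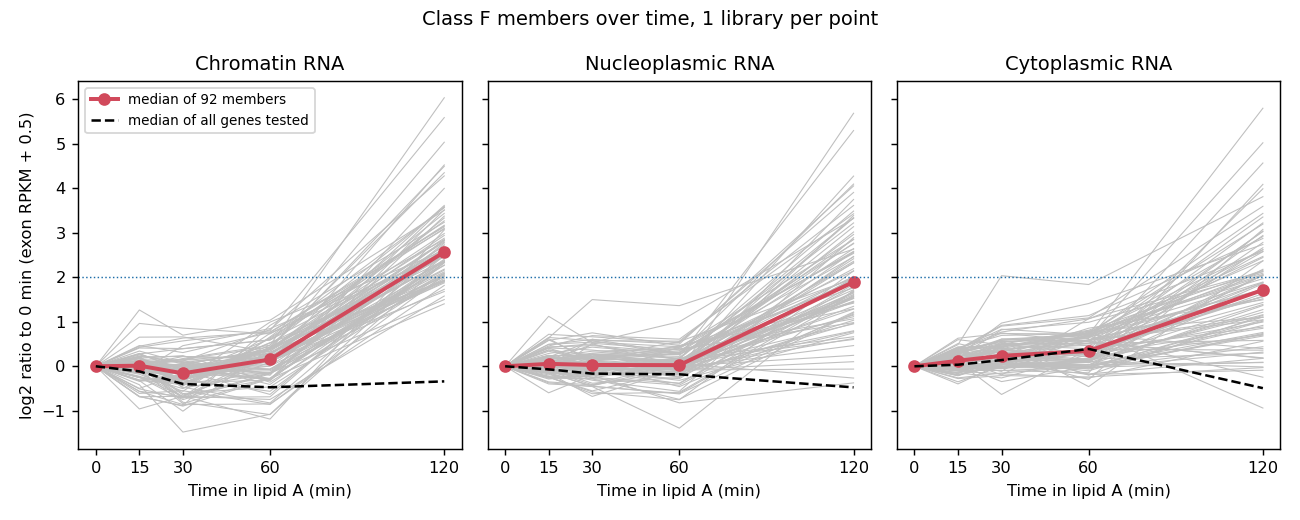
Log2 ratio of exon RPKM + 0.5 to the 0 min library (y axis) against time in lipid A (x axis, min) in the 3 fractions. Grey lines are the 92 members, the red line their median, the dashed black line the median of all genes tested and the dotted line 4-fold; the red line stays near 0 until 60 min and ends at 2.56, 1.89 and 1.71.

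Many members stood below their resting level in chromatin before 120 min. On whole-gene values 67 of the 94 were below 0 min at 15 min and 79 at 30 min, 21 at 60 min and 0 at 120 min. The successive medians from 0 to 120 min were 0.553, 0.478, 0.320, 0.741 and 5.56 RPKM. All genes tested also fell at 30 min, by 0.40 on the log2 scale in exon values, which is more than the members' 0.16. BC013712 (Themis2), a signalling adaptor downstream of Toll-like receptors, is an example with many reads. It stood at 14.9, 11.0, 5.02, 6.78 and 89.2 RPKM in chromatin, at 26.8, 20.6, 19.4, 9.93 and 88.8 RPKM in nucleoplasmic and at 21.0, 26.3, 31.4, 15.2 and 110.3 RPKM in cytoplasmic RNA. Its lowest level came at 30 min in chromatin and at 60 min in the other fractions, and its highest at 120 min in each. Gnb4, a G protein beta subunit, had 0.585 RPKM in chromatin at 0 min, 0.172 at 30 min and 12.3 at 120 min.

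Iigp1, an immunity-related GTPase of the kind that acts on the vacuoles of intracellular parasites and bacteria, had the highest ratio of the members in each fraction with 0.5 RPKM added, 6.03, 5.68 and 5.79 on the log2 scale. It stood at 0.237, 0.214, 0.331, 0.522 and 47.6 RPKM in chromatin, at 0.707, 0.844, 0.685, 0.612 and 61.4 RPKM in nucleoplasmic and at 0.240, 0.466, 0.817, 0.710 and 40.6 RPKM in cytoplasmic RNA. The 120 min library was the single high one in each fraction. Without the addition the ratio at 120 min was 201-fold (142 to 294), 86.9-fold (66.3 to 116) and 169-fold (94.3 to 339) in the 3 fractions. Gm4951, listed with the interferon-inducible GTPases, rose 21.7-fold (17.1 to 28.1), 27.4-fold (19.1 to 40.8) and 22.3-fold (12.3 to 45.2). F830016B08Rik, the neighbour of Iigp1 on the chromosome, was weak, at 1.99 RPKM in chromatin at 120 min and at most 0.640 RPKM elsewhere. Of the whole list of interferon-inducible GTPases 18 genes were in the exon table, and all 18, 16 of 16 and 14 of 16 tested were called higher in the 3 fractions with 0 lower. The list was drawn up with results of these data known, includes Gnb4, which is not of that family, and contains 3 members.

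Antiviral effectors and nucleic acid sensors included the member with the highest chromatin level. Gm14446 (Ifit1bl1), of the IFIT family that binds viral RNA, stood at 0.303, 0.150, 0.155, 0.542 and 25.8 RPKM in chromatin and at 0.755, 1.09, 1.25, 1.44 and 40.2 RPKM in cytoplasmic RNA. These are ratios of 85.0-fold (60.0 to 125) and 53.2-fold (36.5 to 81.0). Samhd1, which degrades the deoxynucleotides that retroviruses need, was the highest member in chromatin, at 22.3, 20.3, 13.5, 13.7 and 144 RPKM. It was already present at 42.9, 48.2, 56.7 and 59.6 RPKM in cytoplasmic RNA before it reached 142 RPKM, a ratio of 3.30-fold (3.16 to 3.44). Zbp1, a sensor of Z-form nucleic acids that can start necroptosis, rose in chromatin from 4.56 to 54.2 RPKM, in nucleoplasmic from 4.86 to 26.2 RPKM and in cytoplasmic RNA from 5.65 to 31.3 RPKM. Mlkl, the pseudokinase that carries out necroptosis, went from 4.66 to 27.9, from 8.64 to 25.8 and from 6.64 to 29.9 RPKM, and was past 4-fold in chromatin and cytoplasmic RNA. The ratio of Ddx60 was 6.54-fold (6.23 to 6.86) in chromatin, 6.6-fold (5.98 to 7.29) in nucleoplasmic and 4.96-fold (4.0 to 6.22) in cytoplasmic RNA. With the 0.5 RPKM added to both values the last is 1.87 on the log2 scale and was not called. Of the 55 genes of this list in the exon table, 8 of them members, 35 were called higher and 3 lower in chromatin, 23 and 1 in nucleoplasmic and 22 and 1 in cytoplasmic RNA. The list's median log2 ratios at 120 min were 2.36, 1.76 and 1.71.

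Of the PYHIN genes, whose proteins bind DNA, Pydc4, Pyhin1 and Pydc3 formed a run of neighbours on chromosome 1, and Mndal lay outside that run. Pyhin1 (Ifi209) stood at 1.78, 1.42, 1.25, 2.68 and 26.7 RPKM in chromatin and at 1.76, 2.52, 3.16, 3.27 and 20.2 RPKM in cytoplasmic RNA. Pydc3 (Ifi208) rose 26.2-fold (20.0 to 35.0), 14.2-fold (10.5 to 19.7) and 25.4-fold (14.4 to 49.7) in the 3 fractions, and Pydc4 (Ifi213) 10.9-fold (8.39 to 14.4), 20.5-fold (11.0 to 43.3) and 32.4-fold (12.4 to 120). Mndal was called in cytoplasmic RNA alone. It began high in chromatin (26.8, 16.5, 16.6, 28.8 and 99.6 RPKM) and its ratio there was 3.71-fold (3.54 to 3.89), while cytoplasmic RNA went from 11.0, 10.3, 13.8 and 14.1 to 68.0 RPKM, a ratio of 6.18-fold (5.51 to 6.95). These genes share sequence with relatives: 25.9% of the 50-base stretches of Pydc3, 20.1% of Pydc4, 35.1% of Pyhin1 and 27.2% of Mndal were found in transcripts of another gene, so reads may have been divided among them in ways the deposited values do not show.

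Some of the Schlafen, Phf11 and Trim30 genes also lay side by side. Slfn5, a member of the Schlafen family that restricts viruses, had the highest cytoplasmic value of all members. It stood at 11.2, 13.6, 14.8, 17 and 99.2 RPKM in chromatin, at 39.5, 43.9, 48.6, 53.4 and 288 RPKM in nucleoplasmic and at 19.7, 25.8, 37.8, 44.0 and 147 RPKM in cytoplasmic RNA. Cytoplasmic Slfn5 thus stood above its 0 min value at 15, 30 and 60 min, but under 4-fold. Slfn1 rose 60.7-fold (40.6 to 95.1), 18.1-fold (12.5 to 27.3) and 21.3-fold (12.0 to 41.7), and Slfn9 5.78-fold (5.26 to 6.36), 5.76-fold (5.24 to 6.34) and 6.20-fold (5.35 to 7.22). Of the Phf11 genes, Gm4902 (Phf11b) rose from 0.717 to 12.6 RPKM and D14Ertd668e (Phf11d) from 1.51 to 12.8 RPKM in cytoplasmic RNA, whereas Gm6907 (Phf11c) reached 11.3 RPKM in chromatin and 0.443 RPKM in cytoplasmic RNA. Setdb2, a histone H3 lysine 9 methyltransferase encoded next to them, rose from 5.52 to 61.8, from 4.83 to 39.0 and from 3.91 to 35.7 RPKM. Trim30a, a ring-finger protein reported to restrain Toll-like receptor signalling in mice, went from 13.6 to 81.2 RPKM in chromatin and from 21.3 to 71.3 RPKM in cytoplasmic RNA. Trim30d was past 4-fold in chromatin and cytoplasmic RNA. Trim30b had no read in cytoplasmic RNA at 0 min and 30 reads at 120 min, 7.85-fold over a floor of 3 reads set in place of none. It stayed under 1 RPKM there and so did not pass the filter. By RefSeq gene order 14 members stood directly beside another member among protein-coding genes, in 6 runs, and 24 of 86 placed had another member within 5 genes. The same counts were not made for other genes, so they are not shown to be particular to the members.

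Ubiquitin, ISG15 and ADP-ribosylation enzymes differed in how far they rose outside chromatin. Trim21, an antibody receptor of the cytosol with ubiquitin ligase activity, stood at 4.12, 2.38, 2.01, 8.23 and 43.0 RPKM in chromatin, at 7.39, 11.6, 7.99, 7.27 and 79.0 RPKM in nucleoplasmic and at 4.76, 4.58, 4.58, 6.18 and 42.3 RPKM in cytoplasmic RNA. Its 120 min libraries were the high ones throughout. Parp10, a mono-ADP-ribosyltransferase, had ratios of 10.4-fold (9.34 to 11.6) in chromatin, 2.58-fold (2.31 to 2.88) in nucleoplasmic and 1.90-fold (1.63 to 2.22) in cytoplasmic RNA. Parp12, another enzyme of that family, had 7.26-fold (6.83 to 7.72), 2.96-fold (2.80 to 3.12) and 3.8-fold (3.51 to 4.11), past 4-fold in chromatin alone. Rnf31, the catalytic subunit of the linear ubiquitin chain assembly complex, went from 5.05 to 22.5 RPKM in cytoplasmic RNA and Usp12, a deubiquitinase, from 4.07 to 19.9 RPKM. Uba7, the activating enzyme of ISG15, rose from 16.5 to 87.6 RPKM in chromatin but stood at 8.73, 10.2, 11.4, 13.1 and 9.96 RPKM in cytoplasmic RNA, with its highest value at 60 min. Of 37 genes of this list in the exon table, 9 of them members, 20, 11 and 13 were called higher in the 3 fractions and 0 lower.

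Of the 5 members that act in antigen presentation 4 were past 4-fold in chromatin and 0 in the other fractions, H2-T10 being past it in none. Nlrc5, the transactivator of MHC class I genes, stood at 7.02, 7.80, 7.81, 8.58 and 57.1 RPKM in chromatin and at 2.95, 3.72, 4.68, 5.05 and 10.9 RPKM in cytoplasmic RNA. Tap1 and Tap2, which together carry peptides into the endoplasmic reticulum, rose 7.81-fold (7.28 to 8.38) and 6.82-fold (6.10 to 7.65) in chromatin. In cytoplasmic RNA the ratio of Tap1 was 2.76-fold (2.35 to 3.26), from 4.18 to 11.5 RPKM, and Tap2 stood at 2.35, 2.68, 2.53, 3.22 and 3.16 RPKM, 1.35-fold (1.03 to 1.76) at 120 min. H2-T22, a nonclassical class I gene that shares 44.7% of its 50-base stretches with relatives, went from 0.272 to 3.45 RPKM in chromatin and from 2.01 to 4.24 RPKM in cytoplasmic RNA. Of 25 genes of this list in the exon table, 5 of them members, 9 of 25 were called higher in chromatin, 1 of 24 in nucleoplasmic and 0 of 22 in cytoplasmic RNA, with 0 lower. The list's median log2 ratios at 120 min were 1.45, 0.51 and 0.27.

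Of the transcription factors and chromatin regulators, Batf2, Lhx2 and Setdb2 were called in all 3 fractions. Batf2, a basic leucine zipper factor of the AP-1 family, stood at 0.999, 1.07, 1.12, 2.15 and 28.5 RPKM in chromatin, at 0.887, 0.905, 1.62, 1.19 and 23.1 RPKM in nucleoplasmic and at 1.12, 1.65, 1.5, 1.48 and 37.9 RPKM in cytoplasmic RNA. Lhx2, a LIM homeobox factor, had 2 chromatin reads (0.0190 RPKM) at rest and reached 4.49 RPKM, 236 times as much (interval 64.9 to 1956). In cytoplasmic RNA it went from 0.140 to 9.65 RPKM. Both had a higher cytoplasmic than chromatin value at 120 min. Nmi, which binds Myc and STAT proteins, was past 4-fold in chromatin alone and went from 2.84 to 17.2, from 7.02 to 25.5 and from 6.91 to 28.5 RPKM. Pcgf5, a subunit of variant Polycomb complexes, rose 12.1-fold (9.49 to 15.8), 5.52-fold (4.30 to 7.18) and 5.08-fold (3.82 to 6.88), and had 93.0% of its chromatin reads outside exons at 120 min. Of 61 genes of this list in the exon table, 4 of them members, 33, 31 and 35 were called higher in the 3 fractions, with 0, 1 and 0 lower.

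Secreted and surface proteins and enzymes of metabolism included Cp. With 0.5 RPKM added, it was the member whose ratios differed most between chromatin and cytoplasmic RNA. Cp, the copper-carrying ferroxidase ceruloplasmin, stood at 0.392, 0.699, 0.824, 1.05 and 42.3 RPKM in chromatin, at 0.0820, 0.457, 0.421, 0.342 and 8.21 RPKM in nucleoplasmic and at 0.0671, 0.0312, 0.105, 0.0287 and 0.645 RPKM in cytoplasmic RNA. Its level at 120 min was thus highest in chromatin and lowest in cytoplasmic RNA, where Batf2 had its highest. Without the addition the ratio of Cp was 108-fold (85.1 to 139) in chromatin. In cytoplasmic RNA it was 9.61-fold (3.52 to 36.7), from 4 reads at 0 min. On that measure Cp does not rank first, since Gm12216 had 70.0-fold and 2.35-fold, from 4 and 2 reads at 0 min. Fgl2, a fibrinogen-like protein with prothrombinase activity, rose from 2.14 to 53.2 RPKM in chromatin, from 10.0 to 174 RPKM in nucleoplasmic and from 1.62 to 14 RPKM in cytoplasmic RNA. Serpina3g, a protease inhibitor, had 3, 2 and 2 reads at 0 min in the 3 fractions and stood at 11.7, 9.91 and 9.07 RPKM at 120 min, ratios of 360 (123 to 1750), 253 (69.8 to 2095) and 142 (38.9 to 1174). Dll1, a Notch ligand, had 1 read each in chromatin and nucleoplasmic RNA at 0 min. It reached 1.93 and 4.26 RPKM there at 120 min, and 0.426 RPKM in cytoplasmic RNA.

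Fcgr4, a receptor for the Fc part of IgG, was abundant at rest and stood at 24.7, 16, 16.7, 13.4 and 104 RPKM in chromatin, at 107, 121, 111, 101 and 340.2 RPKM in nucleoplasmic and at 16.7, 15.0, 16.7, 16.6 and 34.8 RPKM in cytoplasmic RNA. It was past 4-fold in chromatin, and its ratios in the other fractions were 3.18-fold (3.06 to 3.30) and 2.08-fold (1.83 to 2.37). Klrk1, the NKG2D receptor, had no nucleoplasmic read at rest and reached 2.66 RPKM. This is 73.7-fold over a floor of 3 reads set in place of none. Klrk1 reached 0.618 RPKM in cytoplasmic RNA. Ms4a4c, of the membrane-spanning MS4A family, rose 20.8-fold (17.3 to 25.2), 9.39-fold (8.31 to 10.6) and 7.73-fold (5.15 to 12.1). Pla2g16, a phospholipase, went from 0.111 to 3.83 RPKM in chromatin and from 0.765 to 3.12 RPKM in cytoplasmic RNA, and Aldh1b1, a mitochondrial aldehyde dehydrogenase, from 0.510 to 4.56 and from 2.37 to 9.17 RPKM. Ppm1k, the mitochondrial phosphatase that acts on branched-chain ketoacid dehydrogenase, rose 11.2-fold (10.2 to 12.4), 15.4-fold (13.6 to 17.6) and 9.85-fold (8.19 to 11.9). Bckdhb, a subunit of that dehydrogenase, was past 4-fold in no fraction. Its chromatin level went from 2.35 to 7.55 RPKM, its nucleoplasmic level from 0.954 to 1.06 RPKM and its cytoplasmic level from 0.918 to 1.12 RPKM.

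The remaining lists held few members or none. Of the surface receptors and adhesion list, with 4 members, 36 of 57, 33 of 60 and 23 of 50 genes tested were called higher in the 3 fractions and 1, 1 and 0 lower. Of the secreted factors and matrix list, with 1 member, 26 of 37, 31 of 44 and 21 of 35 were called higher and 2 lower in each. Of the metabolic enzymes, with 3 members, 24 of 58, 20 of 57 and 12 of 57 were called higher and 1 lower in each. Of the cell death list, with Mlkl as its member, 15 of 32, 11 of 33 and 13 of 32 were called higher and 0 lower. The signalling inhibitors had 0 members, with 25 of 44, 22 of 44 and 23 of 45 called higher and 2, 3 and 1 lower. The list of small GTPase, cytoskeleton and vesicle traffic genes also had 0 members, with 22 of 56, 19 of 56 and 21 of 57 called higher and 3 lower in each.

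**Figure D3:**
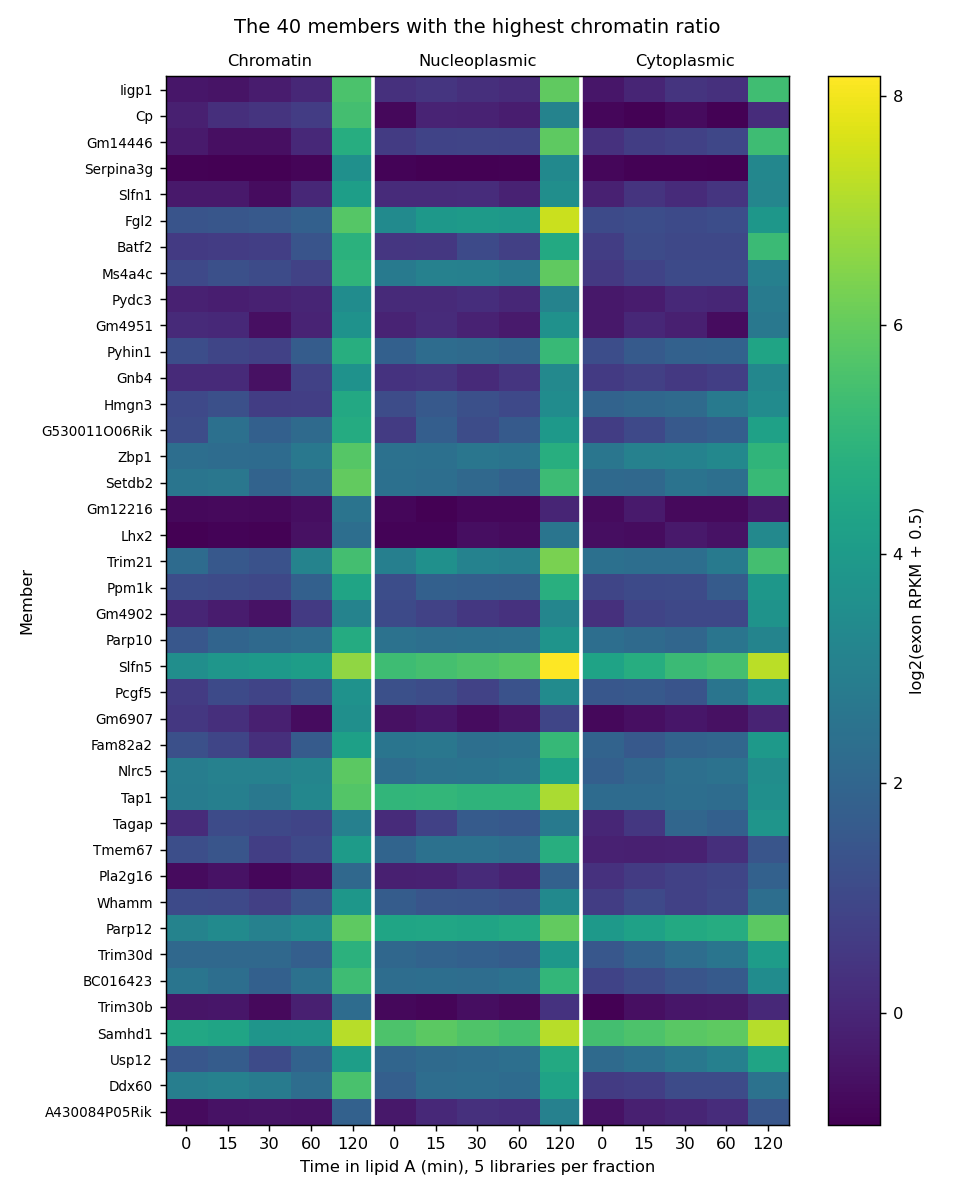
Log2(exon RPKM + 0.5), shown by colour, of the 40 members with the highest chromatin ratio at 120 min (rows, in that order) in the 15 libraries (columns, min in lipid A). In each fraction the 120 min column is the brightest for most rows, and Cp, Gm12216 and Gm6907 are bright in chromatin and dark in cytoplasmic RNA.

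Exon values at 60 min were above those at 0 min for 74 of the 92 members in cytoplasmic RNA. The same held for 59 in chromatin and 51 in nucleoplasmic RNA. The share of all genes above 0 min was not counted. In cytoplasmic RNA at 60 min the median log2 ratio was 0.39 for all genes tested and 0.34 for the members, so the count of 74 is not particular to the members. The members named next had the highest cytoplasmic ratios at 60 min. Tagap, which encodes a GTPase-activating protein, was at 0.619, 1.68, 1.53, 1.35 and 7.53 RPKM in chromatin, at 0.618, 1.24, 2.66, 2.37 and 6.42 RPKM in nucleoplasmic and at 0.501, 0.901, 3.60, 3.07 and 13.5 RPKM in cytoplasmic RNA. It was the single member past 4-fold before 120 min, at 30 min in cytoplasmic RNA, and it was under 4-fold there once values were rescaled by the median of all genes. Its transcript shares 47.6% of its 50-base stretches with Tagap1. G530011O06Rik was at 1.70, 4.79, 3.07, 4.01 and 24.4 RPKM in chromatin and rose 17.1-fold (12.5 to 23.9) in cytoplasmic RNA by 120 min. D14Ertd668e, Slfn5 and Pcgf5 completed the 5 highest cytoplasmic ratios at 60 min, with values there of 4.83, 44.0 and 5.46 RPKM against 1.51, 19.7 and 2.34 RPKM at 0 min.

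The 92 members can be sorted by the fractions in which they were called. In all 3 fractions 29 were called higher, among them Iigp1, Gm14446, Serpina3g, Batf2, Lhx2, Setdb2, Trim21 and Slfn5. Another 9 were called in chromatin and nucleoplasmic but not cytoplasmic RNA, including Cp, Dll1, Klrk1, Ddx60 and Pla2g16. In chromatin and cytoplasmic but not nucleoplasmic RNA there were 8, including BC013712, Mlkl, Rnf31 and Trim30d. Chromatin alone had 31, including Samhd1, Parp10, Parp12, Tap1, Tap2, Nlrc5, Fcgr4, Uba7 and Bst2. Rcn1, an endoplasmic reticulum calcium-binding protein, was called in nucleoplasmic RNA alone and Mndal in cytoplasmic RNA alone. The 13 others were called in no fraction. They included Zeb1, Mfsd6l, Pdk3, Crim1, F830016B08Rik, Pilrb1, H2-T10, D730005E14Rik, Gm5424, Bckdhb, Gm13315 and Itpr1, and the 13 had chromatin ratios of 1.403 to 1.98 on the log2 scale. A call in one fraction and none in another is not a shown difference, since no difference between fractions was tested.

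**Figure D4:**
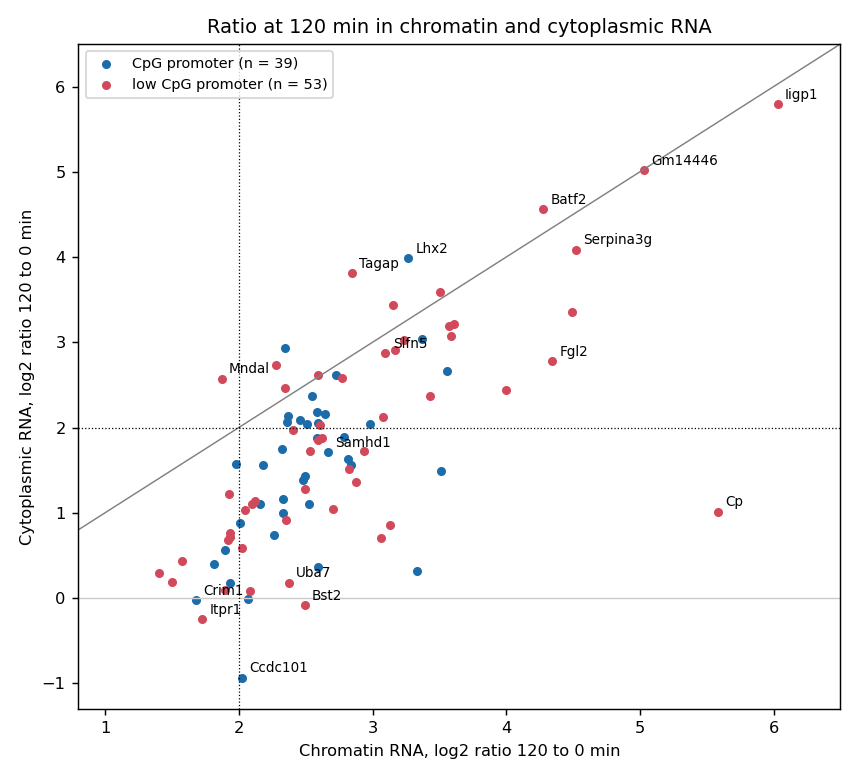
Log2 ratio at 120 to 0 min in chromatin RNA (x axis) and cytoplasmic RNA (y axis) for 92 members, coloured by promoter type; dotted lines mark 4-fold and the grey diagonal equal ratios. Of the points 82 lie below the diagonal and 10 above, with Cp at 5.58 and 1.01, Iigp1 at 6.03 and 5.79 and Ccdc101 at 2.03 and -0.94.

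The ratio at 120 min was smaller in cytoplasmic than in chromatin RNA for 82 of the 92 members and larger for 10, with a median difference of -0.98 on the log2 scale. It was smaller in nucleoplasmic than in chromatin RNA for 79 and larger for 13, with a median difference of -0.71. The members were chosen on their chromatin ratio, which favours a larger value there. In level, the median log2 ratio of cytoplasmic to chromatin RPKM was -0.01 at 0 min and -0.79 at 120 min for the members, and 0.44 and 0.37 for all listed genes. Each library's RPKM is relative to its own total, so a level set across fractions is not an amount per cell.

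The smallest responses outside chromatin belonged to a mixed group. Ccdc101 (Sgf29), a subunit of the SAGA histone acetyltransferase complex, stood at 2.35, 2.46, 1.36, 1.57 and 11.1 RPKM in chromatin. It stood at 3.30, 3.79, 2.80, 1.65 and 2.43 RPKM in nucleoplasmic and at 5.17, 5.83, 4.47, 9.28 and 2.46 RPKM in cytoplasmic RNA. The chromatin value was highest at 120 min, when the cytoplasmic one was at its lowest, 0.476-fold (0.336 to 0.668) of that at 0 min. Itpr1, the inositol trisphosphate receptor that releases calcium, stood at 3.64, 4.0, 3.92, 3.43 and 13.2 RPKM in chromatin and at 8.60, 8.40, 8.85, 8.99 and 7.08 RPKM in nucleoplasmic RNA. Its ratio was 3.63-fold (3.43 to 3.84) in chromatin, 0.823-fold (0.775 to 0.874) in nucleoplasmic and 0.799-fold (0.674 to 0.948) in cytoplasmic RNA. Bst2, tetherin, which holds budding virions at the cell surface, stood at 11.7, 10.7, 16.4, 21.5 and 68.4 RPKM in chromatin, at 89.4, 78.0, 128, 116 and 188 RPKM in nucleoplasmic and at 69.3, 65.2, 72.5, 60.9 and 65.2 RPKM in cytoplasmic RNA. Its cytoplasmic level at 120 min was 0.940-fold (0.857 to 1.03) of that at rest. Crim1, a membrane protein that binds bone morphogenetic proteins, had a cytoplasmic ratio of 0.966-fold (0.688 to 1.36) beside 4.96-fold (4.19 to 5.89) in chromatin. Pdk3, a pyruvate dehydrogenase kinase, had 1.37-fold (1.06 to 1.77) beside 4.92-fold (3.86 to 6.32).

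Others of the lowest ratios were at the edge of detection. Fap, a surface protease, had 237 reads in chromatin at 120 min but 0 and 2 reads in cytoplasmic RNA at 0 and 120 min, so no ratio is given there. Gm13315, Mfsd6l and 6030422M02Rik were at most 0.352 RPKM in nucleoplasmic and at most 0.222 RPKM in cytoplasmic RNA. Pilrb1, an activating paired immunoglobulin-like receptor, had the smallest chromatin ratio with 0.5 RPKM added, 1.403 on the log2 scale, and 4.25-fold (2.68 to 6.99) without it. H2-T10 reached 2.65 RPKM in chromatin and 0.706 RPKM in nucleoplasmic RNA. At 0 min 12, 21 and 29 of the 92 members had under 20 exon reads in chromatin, nucleoplasmic and cytoplasmic RNA, and their ratios rest on few reads.

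In nucleoplasmic RNA 88 of the 92 members were highest at 120 min, and in cytoplasmic RNA 81. The 4 and 11 that were not include Ccdc101, Bckdhb and Itpr1 in both. In cytoplasmic RNA Ccdc101 was highest at 60 min with 9.28 RPKM, Pdk3 at 60 min with 5.38 RPKM, Bckdhb at 30 min with 1.88 RPKM and Itpr1 at 60 min with 3.12 RPKM. All genes tested had their highest cytoplasmic median, 0.39 on the log2 scale, at 60 min, and so values at that time are relative to this shift. The share of all genes highest at 120 min was not counted. On whole-gene values classes D and E also had their largest median ratios at 120 min in both fractions, so that time is not particular to the members.

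Reads outside exons give a further readout of unspliced RNA. They were taken as whole-gene reads minus exon reads for the 74 members with introns and the same transcript in both tables. In chromatin RNA the median share outside exons was 68.2%, 68.3%, 65.2%, 75.5% and 69.2% from 0 to 120 min. It was 13.5%, 22%, 13.1%, 19.9% and 23.6% in nucleoplasmic and 8.05%, 9.96%, 11.1%, 5.23% and 6.78% in cytoplasmic RNA. The genes of classes A1 to E had their highest chromatin median at 15 min, 75%, and their lowest at 120 min, 58.0%. From 0 to 120 min the nucleoplasmic share rose in 50 and fell in 8 of the 58 members with at least 20 whole-gene reads at both times, while the cytoplasmic share rose in 21 and fell in 33 of 54. Shares depend on intron length, and a share sums reads from the whole of the introns.

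In chromatin and nucleoplasmic RNA, but not in cytoplasmic RNA, the median change at 60 min was larger outside exons than in them. Among 60 members with at least 20 reads of each kind in chromatin at 0 min, the median log2 ratio was 0.66 outside exons and 0.25 in exons at 60 min, and 45 of the 60 were higher outside exons. In nucleoplasmic RNA the medians at 60 min were 0.68 and 0.07 with 31 of 42 members higher outside exons, and in cytoplasmic RNA -0.09 and 0.72 with 3 of 17. The nucleoplasmic excess was not particular to 60 min. Its medians were 0.51 and 0.03 at 15 min and 2.65 and 2.06 at 120 min, with 35 of 42 higher outside exons each time. At 30 min they were -0.23 and -0.03, with 12 of 42. At 120 min the chromatin medians were 2.83 and 2.94, and 31 of the 60 were higher outside exons. At 30 min the chromatin medians were -0.78 and -0.27, so the dip was also deeper outside exons. Usp12 shows both steps, with 1.03, 0.817, 0.659, 2.29 and 5.51 RPKM outside exons and 2.33, 2.68, 1.66, 3.22 and 17.2 RPKM in exons. BC013712 stood at 4.27, 2.39, 0.507, 3.39 and 22 RPKM outside exons, with its lowest value at 30 min as in exons. Chromatin is the fraction on which the classes were made, so these values describe the members.

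Among members with little or no cytoplasmic rise, some had high shares outside exons away from chromatin and others did not. Ccdc101 had 22.2% of its nucleoplasmic reads outside exons at 0 min and 64.9% at 120 min, and 11.3% and 30.5% of its cytoplasmic reads. Itpr1 had 15.0% and 50.4% in nucleoplasmic and 34.8% and 59.9% in cytoplasmic RNA, and Bckdhb 68.5% and 90.5%, and 71.8% and 78.8%. Bst2 differed from these, with 5.11% and 7.88% in nucleoplasmic and 0.720% and 2.27% in cytoplasmic RNA. At 120 min Tap2 had 6.83% in nucleoplasmic and 13.3% in cytoplasmic RNA, and Uba7 13.7% and 6.86%. Cp, whose rise in cytoplasmic RNA was small in RPKM, had 55.8% of nucleoplasmic and 44.9% of cytoplasmic reads outside exons at 120 min. Iigp1 and Samhd1 had another transcript in the exon table and gave no such share. Batf2 had 41.6% of its nucleoplasmic and 3.64% of its cytoplasmic reads outside exons at 120 min, and Slfn5 2.13% and 0.307%. Serpina3g and Pcgf5, like these called in all 3 fractions, had 53.3% and 39.4%, and 60.8% and 41.4%. Whether the share goes with the cytoplasmic ratio was not tested.

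**Figure D5:**
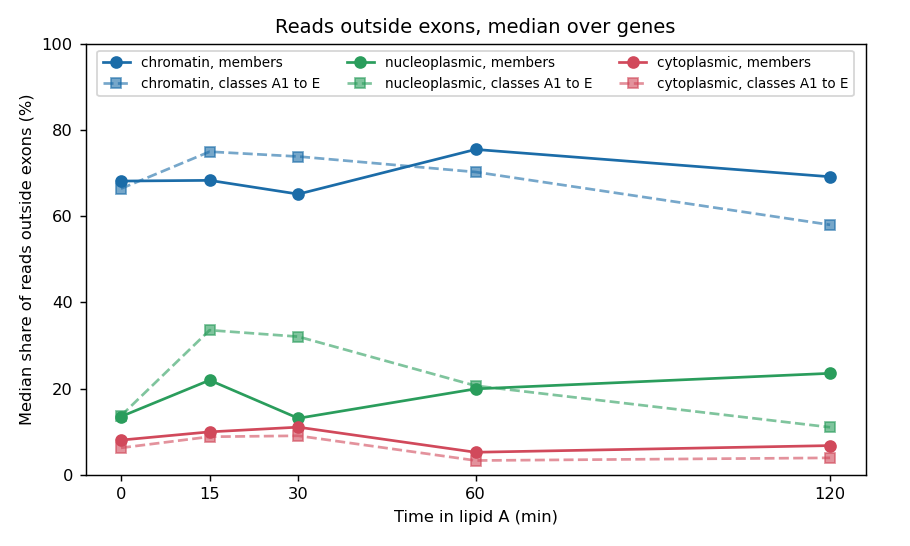
Median share of a gene's reads that lie outside its exons (y axis, %) against time in lipid A (x axis, min) in the 3 fractions, for members (solid lines) and genes of classes A1 to E (dashed lines). The members' chromatin line peaks at 75.5% at 60 min and ends at 69.2%, and that of classes A1 to E falls from 75% at 15 min to 58.0% at 120 min.

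Some of these values are uncertain for reasons of sequence. Of the 94 members 18 share over 10% of their 50-base stretches with transcripts of another gene, foremost Gm5424 (76.5%, shared with Ass1), Tagap, Gm4902 (47.0%) and H2-T22. By RefSeq, 14 overlap another protein-coding gene, among them Cp with Hps3, Fgl2 with Ccdc146, Gnb4 with Mfn1, BC016423 with Gdi2, Gm14446 with Ifit1 and relatives, and Setdb2 with Gm45935. The libraries mark strand, but its use in counting is not stated, so reads of overlapping genes cannot be told apart. Of the 63 members without either feature, 87.3% were called higher in chromatin, 36.5% in nucleoplasmic and 36.5% in cytoplasmic RNA.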

How the data were processed

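Per the submitters' processing notes, the tool named is TopHat and the build mm9. The counting tool, the annotation, how reads with several matches were treated and whether strand was used are not stated. The authors deposited RPKM values, per the file headers, in an exon table (10020 genes) and a whole-gene class table (560 genes). A further 3 columns of values belonged to no sample listed and were left unused. Reads were recovered as the whole numbers that 1 length per gene gives, for 99.99% of exon-table and 100% of class-table genes within 0.02 reads or a relative tolerance above that. Values without reads (318 in the exon table) had been filled in by the authors with 0.0191 RPM, which in the chromatin library of 15 min equals 1 read.

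Ratios used RPKM + 0.5 and a filter of 1 RPKM, reached by 1 or more of a fraction's libraries. A gene at 4-fold was called. Intervals (95%, exact binomial on reads) and the floor of 3 reads describe counting error alone, because duplicates from PCR were not identified. Calls and intervals were tested on simulated data. Members and lists were chosen with earlier results of these data known. Genes were named as the highest and lowest ratios, the highest levels, the leading members of each role list, the extremes of the authors' fold, the highest cytoplasmic ratios at 60 min and those highest before 120 min; further members were added after their values were seen. Samhd1, Iigp1 and 12 other members carry another transcript in the exon table. Promoter sequences are from RefSeq (GRCm38.p6) and transcripts for shared 50-base stretches from GENCODE. Python 3.11.15 with numpy 2.4.6, pandas 2.3.3 and scipy 1.17.1 was used. The values of 1 member are not reported here.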

Additional observations from a re-analysis of the deposited data

Results flagged for a closer look

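In 6 members the ratio at 120 min was below 0 in nucleoplasmic or cytoplasmic RNA while chromatin RNA was higher than at 0 min. The difference between fractions was not tested, as each has 1 library per time. On the log2 scale Ccdc101 was at -0.37 in nucleoplasmic and -0.94 in cytoplasmic RNA beside 2.03 in chromatin. Itpr1 was at -0.26 and -0.25 beside 1.73. In cytoplasmic RNA alone, Bst2 was at -0.088 beside 2.49, Crim1 at -0.029 beside 1.68 and 6030422M02Rik, which had 1 cytoplasmic read at 0 min, at -0.015 beside 2.07. In nucleoplasmic RNA Gm13315, with 2 reads at 0 min, was at -0.063 beside 1.90. Rescaled by the median of all genes, Ccdc101 stayed below 0 in cytoplasmic RNA (-0.45) and all the other values were above 0, from 0.10 to 0.48.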

How the results depend on the processing

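No paired analysis was possible because each fraction and time had 1 library. Of 50 alternatives, 29 left a count within 1.5 times or a median within 0.1 of the reported value. These include alternatives for the chromatin count, which the choice fixed. They also include dropping the filter for medians that do not use it. A turned direction could be scored for the median log2 ratios alone, and 0 of those turned. Without the 120 min library, the counts of members called higher were 0 in chromatin, 0 in nucleoplasmic and 1 in cytoplasmic RNA, as the calls rest on that library. In nucleoplasmic RNA the count of 39 became 62 with values rescaled by the median of all genes, 23 on whole-gene RPKM, 75 at 2-fold and 23 without the members that share sequence or overlap a gene, an alternative chosen after seeing the data. The cytoplasmic count of 38 became 16 on whole-gene RPKM, 63 at 2-fold and 23 without those members. A pseudocount of 0.1 RPKM called 1 member at 60 min in cytoplasmic RNA in place of 0. The nucleoplasmic median at 120 min, 1.89, was 2.08 and 1.69 with pseudocounts of 0.1 and 1 RPKM, 2.37 rescaled, 1.43 on whole-gene RPKM and 1.76 without those members. The cytoplasmic median, 1.71, was 2.07 and 1.43, 2.21 rescaled, 0.94 on whole-gene RPKM and 2.03 over the members that passed the filter, also chosen after seeing the data. Depth limits the weakest members: 29 of 92 had under 20 cytoplasmic reads at 0 min.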
